A study of Mus musculus with 18 samples.

Results

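The 77 protein-coding genes for the proteins of the cytosolic ribosome were followed through the trunk of control mouse embryos and of embryos with a conditional deletion of Meis1 and Meis2. They were the rows of the deposited table, out of 53465, whose identifier maps to a protein-coding gene with a symbol of the form Rpl or Rps with a number, Rplp0, Rplp1, Rplp2 or Rpsa. Pseudogenes were left out. Of the 77 genes, 46 encode proteins of the large subunit and 31 of the small subunit, and 4 of them, Rpl10, Rpl36a, Rpl39 and Rps4x, lie on the X chromosome.

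The study measured poly(A) RNA in 9 embryos at embryonic day 9, with 20 to 24 somites, to find Meis target genes in skeletal patterning along the axis. The 5 control embryos are labelled only as controls, and their alleles are not given in the sources used here. The 4 double knockout (DKO) embryos had Meis1 and Meis2 deleted conditionally with Delta1Cre, a Cre recombinase named for the Delta1 gene, so deletion is limited to the cells and descendants in which Cre was active. Each embryo gave an anterior piece of the somite-bearing axis and a posterior piece, the axial bud with the newest somites, which made 4 groups: anterior control (5 libraries), posterior control (5), anterior DKO (4) and posterior DKO (4). The labels report neither strain nor pooling.

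A ribosome is built from ribosomal RNA and a copy of nearly every ribosomal protein, so the messages for these proteins are among the most abundant in a growing cell. In vertebrates most of them begin with a 5′ terminal oligopyrimidine tract (TOP), a C followed by a run of C and T bases, through which their translation is controlled together. Spliced ribosomal protein messages have also been copied back into the genome many times, which has left processed pseudogenes, intronless copies that can be nearly identical to the parent. Inherited loss of 1 copy of several of these genes gives skeletal, pigment or tail defects in mice, with Rpl38 known for its link to axial patterning.

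The start sites were searched for a run of C and T. RefSeq promoter entries (build GRCm38.p6) matched 57 of the 77 genes with 67 entries. A run of at least 8 bases, all C or T, touched the 10 bases on either side of the annotated start in 28 of these entries (41.8%) and in 4469 of 32784 entries of other genes (13.6%). The letters CCGGAAG, the core bound by Ets factors, stood on either strand of the 300-base window in 37.3% of the entries and in 8.80% of the others. TATAAA stood there in 8.96% and 13.6%. The following examples give 15 bases before the annotated start and 15 bases from it on, with the run of C and T in capitals, and they were chosen after the sequences were seen because the run lies across or next to the start.
Rpl38, chr11:114668565-114668594, plus strand: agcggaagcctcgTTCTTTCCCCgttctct
Rps6, chr4:86857353-86857382, minus strand: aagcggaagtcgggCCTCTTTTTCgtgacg
Rpl28, chr7:4792950-4792979, plus strand: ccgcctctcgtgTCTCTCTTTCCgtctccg
Rps10, chr17:27635230-27635259, minus strand: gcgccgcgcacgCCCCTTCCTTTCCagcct
Rps18, chr17:33955651-33955680, minus strand: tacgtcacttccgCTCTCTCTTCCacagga
Rps27, chr3:90213634-90213663, minus strand: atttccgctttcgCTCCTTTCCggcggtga

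The second feature is the copies, because reads of 61 bases cannot always tell a gene from its pseudogene. Windows of 61 bases from the coding sequence of each gene were compared with every transcript of the table. The median gene had 18.7% of its coding windows to itself, and 27 genes had less than 10%. Rows that share at least 10% of a gene's coding windows and give at least 25% of their own windows to the match are called copy rows here. There were 306 of them, 296 annotated as pseudogenes and 10 as protein coding, and they belonged to 67 of the 77 genes.

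The windows below lie around the first difference between a gene and its copy that has 30 bases of alignment on each side, with differing bases in capitals. Positions count from 1 at the A of the start codon, and each change is written with the gene's base first. Rps13 (7:116331505-116334195, minus strand) and Rps13-ps1 (8:87047689-87048226, plus strand) differ at 2 of 456 coding bases, T411C and A429G, and both lie in the window shown.
Rps13, coding bases 381 to 441: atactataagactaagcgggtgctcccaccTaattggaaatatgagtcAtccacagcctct
Rps13-ps1, chr8:87048100-87048160: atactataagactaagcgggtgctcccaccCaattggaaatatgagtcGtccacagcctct
Rpl3 (15:80077791-80091868, minus strand) and Rpl3-ps1 (X:13202571-13203780, plus strand) differ at 2 of 1209 aligned bases, and C57A is in the window.
Rpl3, chr15:80082499-80082559: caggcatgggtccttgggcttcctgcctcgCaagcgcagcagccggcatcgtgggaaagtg
Rpl3-ps1, chrX:13202598-13202658: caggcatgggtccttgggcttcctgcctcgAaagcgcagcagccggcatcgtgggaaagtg
Rps3a1 (3:86137940-86142702, minus strand) differs from Rps3a2 (14:88123017-88123808, minus strand) at 4 of 792 aligned bases and from Rps3a3 (13:108670603-108671397, plus strand) at 9 of 795, and both copies carry T216C.
Rps3a1, chr3:86141347-86141407: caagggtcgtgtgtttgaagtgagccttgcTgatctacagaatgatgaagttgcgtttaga
Rps3a2, chr14:88123563-88123623: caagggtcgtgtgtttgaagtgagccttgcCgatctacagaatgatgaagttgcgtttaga
The coding bases of Rpl5 and of its copy Gm15500 (7:114705217-114706235, minus strand) were identical at 894 of 894, and those of Rps12 and Rps12-ps3 (19:59322290-59322783, plus strand) at 399 of 399.

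Libraries held 12650973 to 38180348 expected counts, so that 3 counts, the floor used for a value of 0, correspond to 0.0786 to 0.237 CPM (the counts-per-million scale). These floors cover counting error only. The labelled pieces matched their markers: all 10 axial bud markers were called higher and all 10 neural tube markers lower in the posterior of controls. In CPM of the unscaled libraries, Meis1 ran from 90.6 to 111 in anterior DKO against 112 to 137 in anterior controls, and Meis2 from 132 to 158 against 177 to 205. In the posterior pieces the ranges were 46.1 to 71.7 against 60.0 to 101 for Meis1, which overlap, and 87.5 to 116 against 118 to 165 for Meis2. Counts on both genes thus remained in every DKO library. The posterior library of DKO embryo 4 and, less far, that of control embryo 5 stood apart in the ribosomal protein genes, and the main counts and medians that hold them are given with and without those embryos.

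Ribosomal protein messages took 5.24% to 7.60% of a library. The share of all counts was 6.12%, 5.81%, 5.66%, 6.05% and 6.16% in anterior controls 1 to 5 and 5.83%, 5.84%, 5.34%, 5.97% and 5.24% in the matching posterior pieces. In DKO embryos 1 to 4 it was 6.20%, 6.35%, 5.90% and 6.02% in the anterior and 5.97%, 5.75%, 5.78% and 7.60% in the posterior. The posterior piece was below the anterior piece in 4 of 5 controls and 3 of 4 DKO embryos, and the 7.60% of posterior DKO 4 was above every other library. Group means were 5.96% ± 0.215 (SD, n = 5) in anterior control, 5.64% ± 0.328 (n = 5) in posterior control, 6.12% ± 0.196 (n = 4) in anterior DKO and 6.28% ± 0.888 (n = 4) in posterior DKO, the last being 5.83% ± 0.120 over its other 3 libraries. The posterior control mean was 5.74% without embryo 5. No test was made on these sums. The p-values given later for comparisons of genotypes within a region measure the spread between embryos. Between pieces and in the interaction, the main fits take both pieces of an embryo as separate libraries. Fits with the embryo as a block measure the spread of differences within embryos. In dissected pieces, fewer ribosome-rich cells and less ribosomal protein RNA per cell cannot be told apart.

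**Figure D1:**
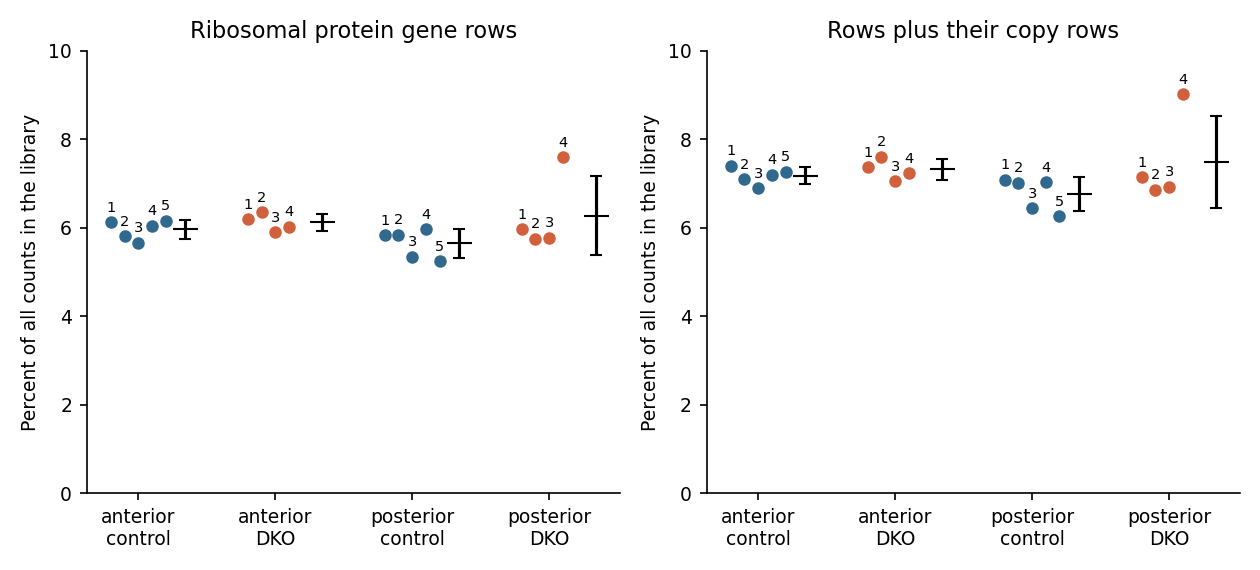
Percent of all counts in each library on the 77 ribosomal protein gene rows (left) and on those rows plus their copy rows (right), by group, with the embryo number above each point and the mean and SD beside it in black. Posterior DKO 4, at 7.60% and 9.02%, is the highest library in both panels.

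Counts on large-subunit genes divided by those on small-subunit genes gave 1.38 ± 0.0290 in anterior control, 1.39 ± 0.0266 in posterior control, 1.37 ± 0.0321 in anterior DKO and 1.36 ± 0.0120 in posterior DKO. In posterior DKO 4 it was 1.36, and the mean of the other 3 posterior DKO libraries was 1.37 ± 0.0133. With copy rows added to each gene the ratio lay between 1.48 and 1.52 in all 18 libraries, and posterior DKO 4 was the lowest.

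Copy rows held at least 15.1% of the counts on genes and copies together in every library. This was unevenly spread: 44 genes kept over 95% of their summed counts on their own row, and 8 kept less than 50%. Rpl5, a large-subunit protein that binds 5S rRNA, averaged 70.7 CPM over the 18 libraries, 4.68% of the 1510 CPM of gene and copies, with the rest mainly on Gm15500. Rpl12, part of the stalk base, held 86.8 CPM (7.74%), with Gm10275 as its main copy, and Rps12 held 83.9 CPM (8.25%), with Rps12-ps3 as its main copy. Rpl27, Rps23, Rpl27a, Rpl35 and Rpl11 kept 25.5%, 34.8%, 34.8%, 42.1% and 48.2%. Low row values of these genes are therefore uncertain as levels of their messages.

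Mean levels of single rows ran from 70.7 to 2402 CPM, and from 219.7 to 2959 CPM once copies were added. Per kilobase of the principal transcript, the highest rows were Rplp1, a stalk protein, at 2685 CPM per kb, Rpl41 at 2460 and Rplp0 at 1769. The lowest were Rpl5 at 34.6, Rpl12 at 69.9 and Rps15a at 104 CPM per kb. With copies added, Rpl5 stood at 738 and Rpl12 at 903 CPM per kb, and the lowest were Rps15a at 105, Rps20 at 243 and Rpl21 at 244. The annotated principal transcripts of Rps15a and Rps20, of 5130 and 3706 bases, enter these values.

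Some copies were read in some embryos and hardly in others. Rps13, a small-subunit protein, read 278, 268, 283, 296 and 588 CPM in anterior controls 1 to 5 and 302, 591, 544 and 273 CPM in anterior DKO 1 to 4. Rps13-ps1 read 289.9, 300.4, 258, 296 and 0.518 CPM in the same controls and 274, 2.42, 3.46 and 297 CPM in the same DKO libraries. The 3 embryos with hardly any Rps13-ps1, control 5, DKO 2 and DKO 3, were those with the high Rps13. The posterior pieces repeated this, with Rps13 at 472, 535 and 544 CPM in those embryos and 261 to 399 CPM in the others.

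Rpl3, one of the largest ribosomal proteins, read 1430.4, 1421, 1328, 1946 and 2002 CPM in anterior controls and 1922, 1402, 1886 and 1928 CPM in anterior DKO. Rpl3-ps1 read 548, 544, 507, 0 and 0.1296 CPM in the controls and 0, 513, 0 and 0.0691 CPM in the DKO libraries. Over all 18 libraries, 8 had Rpl3-ps1 at 507 to 555 CPM with Rpl3 at 1278 to 1446 CPM, and 10 had it at no more than 0.587 CPM with Rpl3 at 1801 to 2384 CPM. The sums were 1795 to 1978 and 1801 to 2384 CPM. Rps3a1, near the exit of the messenger RNA channel, stood at 954 to 992 CPM in the 4 libraries of controls 1 and 2, where Rps3a2 read 345 to 371 and Rps3a3 239 to 263 CPM, and at 1389 to 2023 CPM in the other 14, where Rps3a2 read at most 0.747 and Rps3a3 at most 0.524 CPM.

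**Figure D2:**
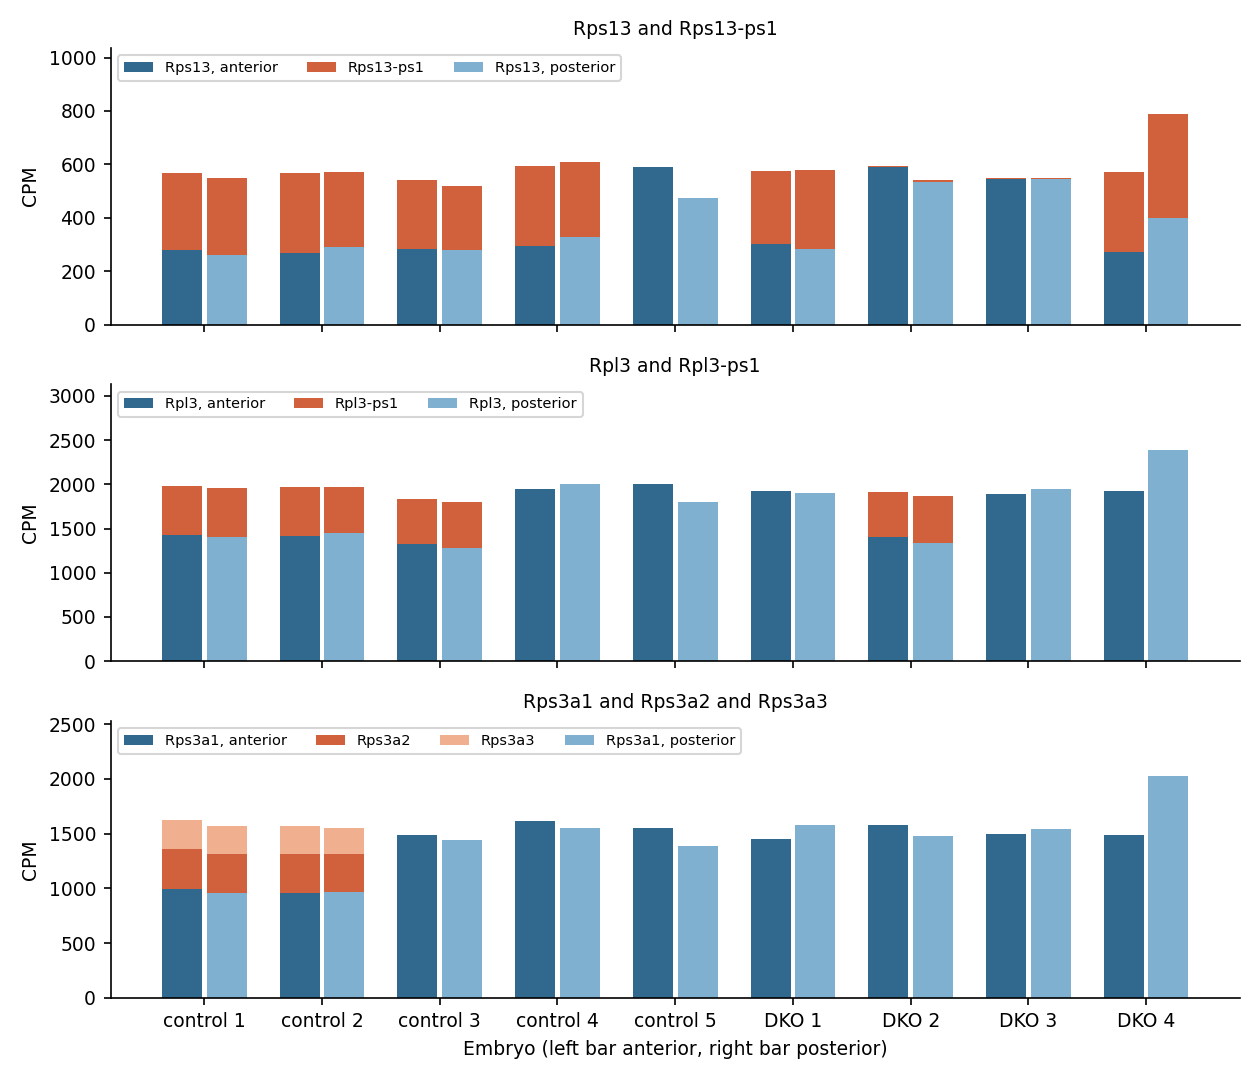
CPM of Rps13, Rpl3 and Rps3a1 (blue, anterior dark and posterior light) with their copies stacked on top (orange), for each embryo. Where the copy rows are near 0 the gene's own bar is taller, both pieces of an embryo look alike, and the stacked heights differ less than the blue parts.

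Of 32 copy rows that reached 100 CPM, 7 fell to 10% or less of their own highest value in some library. For 5 of these 7, Rps13-ps1, Rpl3-ps1, Rps3a2, Rps3a3 and Gm10020 (a copy of Rpl15), both pieces were on the same side of that bound in all 9 embryos. The exceptions were Gm12191 (a copy of Rpl30), alike in 5 embryos, and Gm12918 (a copy of Rpl13), alike in 4. Low libraries were found in both genotypes for all 7. Those of Gm12918 were anterior DKO 3, posterior DKO 2 and posterior controls 2, 3 and 4. What sets the difference between embryos was not tested.

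Summing a gene with its copies narrowed the spread of the genes that varied most. Within groups, the SD of log2 CPM was 0.46 for Rps13, 0.41 for Rps12 and 0.29 for Rps7, the 3 largest, and 0.07 for Rpl4, 0.10 for Rpl17 and 0.10 for Rpl6, the 3 smallest. After summing, Rps13, Rps12 and Rps7 had SDs of 0.14, 0.14 and 0.09, and Rpl3 went from 0.28 to 0.09. Some genes widened, such as Rpl37a from 0.13 to 0.15 and Rpl17 from 0.10 to 0.11. Genes with an SD above 0.25 numbered 8 as rows and 0 as sums. The median over the family was 0.14 and 0.13, beside 0.18 over the 16428 genes of the table that passed the filter on low counts. Those genes were not matched for level, while the median member row averaged 674 CPM, so the gap cannot be read as a trait of the family. Without posterior DKO 4 the family medians were 0.10 and 0.08. As a description, the median correlation of a gene's deviations from its group means with the mean of the other members was 0.90 for rows and 0.94 for sums over the 18 libraries, and 0.89 for sums without posterior DKO 4 and posterior control 5. These points share libraries and scaling.

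**Figure D3:**
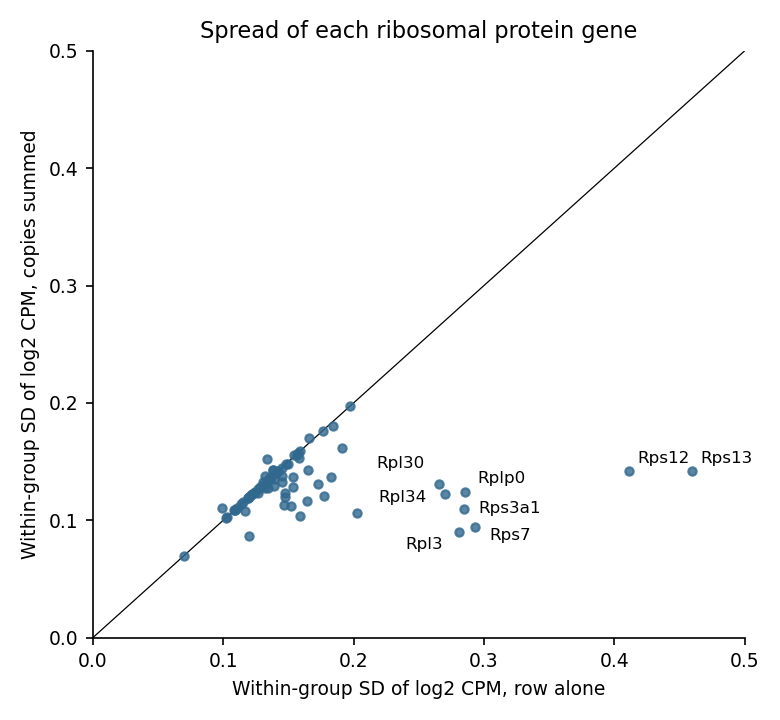
Within-group SD of log2 CPM of each gene as a single row (x axis) and summed with its copies (y axis), with the line of equal values. The 8 named genes, above 0.25 as rows, fall below 0.15 as sums, and most other genes lie near the line.

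On single rows, with TMM scaling and neither pairing nor covariates, edgeR called no ribosomal protein gene between the pieces of control embryos. The median log2 fold change, posterior over anterior, was -0.07 (0.954-fold), with 70 of 77 genes lower and 7 higher, and -0.02 without control embryo 5. The first stood beside a median of -0.01 and 51.3% lower over all 15294 genes tested. No member passed an adjusted p of 0.05 in edgeR's quasi-likelihood test, against 25.4% of all genes tested. At an unadjusted p under 0.05 there were 4 lower and 1 higher, where 18.5% and 16.9% of all genes stood, and 1 lower and 1 higher without control embryo 5. DESeq2 and limma-voom called 0 as well. The 95% interval lay within ±0.5 on the log2 scale for 75 of the 77 genes, and in no member did the libraries of the groups separate, while 20.1% of all genes did so.

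The nearest to the threshold was Rpsa, a small-subunit protein also known as the laminin receptor. It read 2394, 2314, 2243, 2302 and 2292 CPM in anterior controls and 2280.5, 2174, 2034, 2135 and 1837 CPM in posterior controls. Each posterior piece was below its anterior piece, though the groups overlapped, and the log2 fold change was -0.14 ± 0.05 (SE, edgeR adjusted p = 0.0572). With the embryo as a block, which compares the pieces of the same animal, 7 members were called, 6 lower and 1 higher, or 9.09% of the family beside 33.6% of all genes. Rpsa (-0.15, edgeR adjusted p = 0.0187), Rps27a (-0.15), Rplp1 (-0.13), Rpl7a (-0.17), Rpl32 (-0.12) and Rpl9 (-0.11) fell, and Rpl12 (0.18, edgeR adjusted p = 0.0165) rose.

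The rise of Rpl12 was that of a row with 7.74% of its summed counts. With copies summed, Rpl12 had a log2 fold change of -0.03 ± 0.04 (edgeR adjusted p = 0.626, no block). The block with copies summed called 12 members, all lower, among them Rpl31 (-0.21), Rps4x (-0.09), Rps6 (-0.10), Rpl10 (-0.10) and Rpsa (-0.14), or 15.6% of the family beside 34% of all genes. That fit without control embryo 5 called 2, Rpl31 (-0.12) and Rpsa (-0.09), both lower, beside 31.2% of all genes, with a median of -0.03 and 63 of 77 genes lower. Covariates for sex label and somite number, without the block, called 4 members beside 27.3% of all genes. That label did not match the sex-linked genes of control embryo 1, labelled female, whose libraries held Xist at no more than 0.340 CPM and the Y-linked Ddx3y at 42.6 to 47.7 CPM, against 397 to 672 and at most 0.259 CPM in the other libraries labelled female. Upper-quartile scaling called Rpsa beside 25.9%, and summed copies called Rpl31 beside 25.6%. Without control embryo 5 the block called 1 member, Rpl12, beside 30.9% of all genes, the median was -0.02, and 23 genes were higher. Without that embryo and without the block the median was -0.02, with 24 genes higher and 53 lower.

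In its posterior piece control embryo 5 was below the mean of the other 4 posterior controls in 68 of 77 members, by a median of 0.19 on the log2 scale, with the lowest value in Rpl10 (-0.54). With copies summed Rpl10 read 1043, 1049, 1006, 1073 and 962 CPM in posterior controls 1 to 5 and differed by -0.12. With copies summed 74 of 77 members were lower, the median was -0.19, and the lowest was Rpl41 (-0.48). In the same library 7 of 7 heart markers were higher, by a median of 1.64 on the log2 scale, and 1 of 12 primitive erythroid markers was, with a median of -0.27. Higher there were also 9 of 10 neural tube markers (median 0.36), 8 of 9 myotome markers (0.52), 8 of 10 presomitic and somite markers (0.33), 6 of 8 sclerotome markers (0.21) and 7 of 10 neuron markers (0.21). Of the axial bud, gut endoderm, neural crest and endothelium markers, 4 of 10, 3 of 8, 3 of 8 and 5 of 10 were higher, with medians of -0.09, -0.10, -0.02 and -0.01. The summed levels ran from 4.22 to 29.98 CPM for the heart list and from 1722 to 2783 CPM for the erythroid list over posterior controls, against 19.2 to 37.0 and 1221 to 5898 CPM in anterior controls. Between pieces of controls all 12 erythroid markers had a lower mean in the posterior, with a median log2 fold change of -0.67. Of these 12, 0 were called, beside 25.4% of all genes. None of the markers of either of those lists was at 0 in all controls of a piece. The part of these cell types in the result was not tested.

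In DKO embryos the direction between pieces depended on 1 library. Over all 4 embryos the posterior was higher in 75 of 77 genes, with a median log2 fold change of 0.07 beside 0.01, with 52.1% higher, over all 15777 genes tested. No member was called by edgeR, DESeq2 or limma-voom, and 0 had an unadjusted p under 0.05 in edgeR, where 18.5% of all genes were called and 29.4% had such a p. In no member did the groups separate, beside 23.5% of all genes. Without DKO embryo 4 the posterior was lower in 73 genes, with a median of -0.07 and 6 lower at an unadjusted p under 0.05. Rplp1 (-0.17 ± 0.03, edgeR adjusted p = 0.0137) and Rpl41 (-0.17 ± 0.05, edgeR adjusted p = 0.0348) then fell, beside 16.2% of all genes called, and both fell with copies summed too, beside 16.5%. With the embryo block and all 4 embryos the median was 0.06 and no member was called.

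Between DKO and control embryos edgeR called no change in any ribosomal protein gene. In the anterior pieces the median log2 fold change, DKO over control, was 0.04 beside 0.00, with 50% higher, over all 15238 genes tested, with 50 members higher and 27 lower. No member passed the adjusted threshold, which 6 genes of the table (0.0394%) did, and 10 were higher and 0 lower at an unadjusted p under 0.05, where 6.41% and 6.61% of all genes stood. Leaving out 1 embryo moved the 10 to between 4 (without control 3) and 14 (without control 1), with 5 without DKO 1 and 6 without DKO 2, and 0 or 1 lower. The median ranged from 0.01 without DKO 2 to 0.06 without control 1. The 95% interval lay within ±0.5 for 73 genes and within ±1 for all 77. Across the genes fold changes ran from -0.25 to 0.32 on the log2 scale, and from -0.06 to 0.15 once copies were summed.

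Rpl27 had the smallest p. It read 150.3, 138, 139, 148 and 145 CPM in anterior controls and 174, 161, 169 and 162 CPM in anterior DKO. All DKO libraries were above all controls, with a log2 fold change of 0.21 ± 0.04 (edgeR adjusted p = 0.0976). DESeq2 called it (adjusted p = 0.00108) and no other member, beside 1.94% of all genes, and limma-voom called none. Rplp1 was the other member whose anterior groups did not overlap, so that 2 of 77 separated beside 5.07% of all genes. With copies summed, Rpl27 had a log2 fold change of 0.06 ± 0.04 (edgeR adjusted p = 0.512) and no member separated.

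The next smallest p-values among genes higher in anterior DKO were those of Rplp1 (0.11), Rpl18 (0.13) and Rps3 (0.11), a small-subunit protein with a role in DNA repair, all on the log2 scale and none below an edgeR adjusted p of 0.247. Among genes lower, the smallest were those of Rpl34 (-0.25), Rpl5 (-0.14), Rps6 (-0.08) and Rpl7 (-0.05). Rpl34 turned to 0.05 when its copies were summed.

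In the posterior pieces 73 of 77 genes were higher in DKO, by a median log2 fold change of 0.19 (1.14-fold) beside 0.01, with 52.4% higher, over all 15936 genes tested. No member was called by edgeR, DESeq2 or limma-voom, where edgeR called 2 genes of the table (0.0126%), and 4 were higher and 0 lower at an unadjusted p under 0.05, beside 5.27% and 5.74% of all genes. Leaving out 1 embryo moved the 4 to 0 without DKO 4, with 1 lower, to 2 without control 2 or control 3, to 8 without DKO 1, to 13 without DKO 3 and to 15 without DKO 2. In no member did the libraries of the groups separate, beside 4.29% of all genes. Rpl30 had the smallest p, at 0.42 ± 0.15 (edgeR adjusted p = 0.415), ahead of Rps3a1 (0.39 ± 0.16), Rps14 (0.28 ± 0.12) and Rpsa (0.25 ± 0.11). Without DKO embryo 4 these came to 0.29, 0.27, 0.13 and 0.09. The 4 genes with lower means were Rps12 (-0.27 ± 0.26), Rpl34 (-0.07), Rpl5 (-0.01) and Rplp0 (-0.01). With copies summed, Rpl30 came to 0.21 ± 0.11 and Rps3a1 to 0.14 ± 0.09, and all 77 genes were higher, from 0.07 to 0.29.

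Markers of cell types also differed between the posterior groups, and edgeR called 0 of them, beside 0.0126% of all genes. Presomitic and somite markers summed to 476 to 549 CPM in posterior DKO and 557 to 673 CPM in posterior controls, so the groups did not overlap, with 5 of 10 genes higher. All 10 neural tube markers had higher means in DKO (median 0.30), as had 12 of 12 primitive erythroid markers (0.48), 9 of 10 axial bud markers (0.16), 8 of 10 neuron markers (0.30), 7 of 8 gut endoderm markers (0.30) and 7 of 8 neural crest markers (0.08). Of 8 sclerotome and 10 endothelium markers, 0 were higher (-0.31 and -0.20), and 4 of 7 myotome and 3 of 7 heart markers were. The summed levels of these lists overlapped between the groups. In the anterior pieces 0 of 12 primitive erythroid markers were higher in DKO (-0.65), and 9 of 10 neural tube markers were (0.32). The neural tube sums, 670 to 741 CPM in anterior DKO and 512 to 654 CPM in anterior controls, did not overlap. Those of the other marker lists overlapped there. The part of these cell types in the differences between genotypes was not tested.

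The posterior difference rested largely on DKO embryo 4. Without control embryo 5, 74 genes were higher and 3 lower, and the median was 0.14. Without DKO embryo 4, 65 genes were higher and 12 lower, and the median was 0.05. Rps14 showed the pattern, with 1059, 999, 884, 926 and 836 CPM in posterior controls and 1061, 959.8, 1094 and 1439.9 CPM in posterior DKO. Of the other 3 DKO libraries, that of embryo 2 lay within the control range and those of embryos 1 and 3 above it, while the library of embryo 4 was the highest of all.

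**Figure D4:**
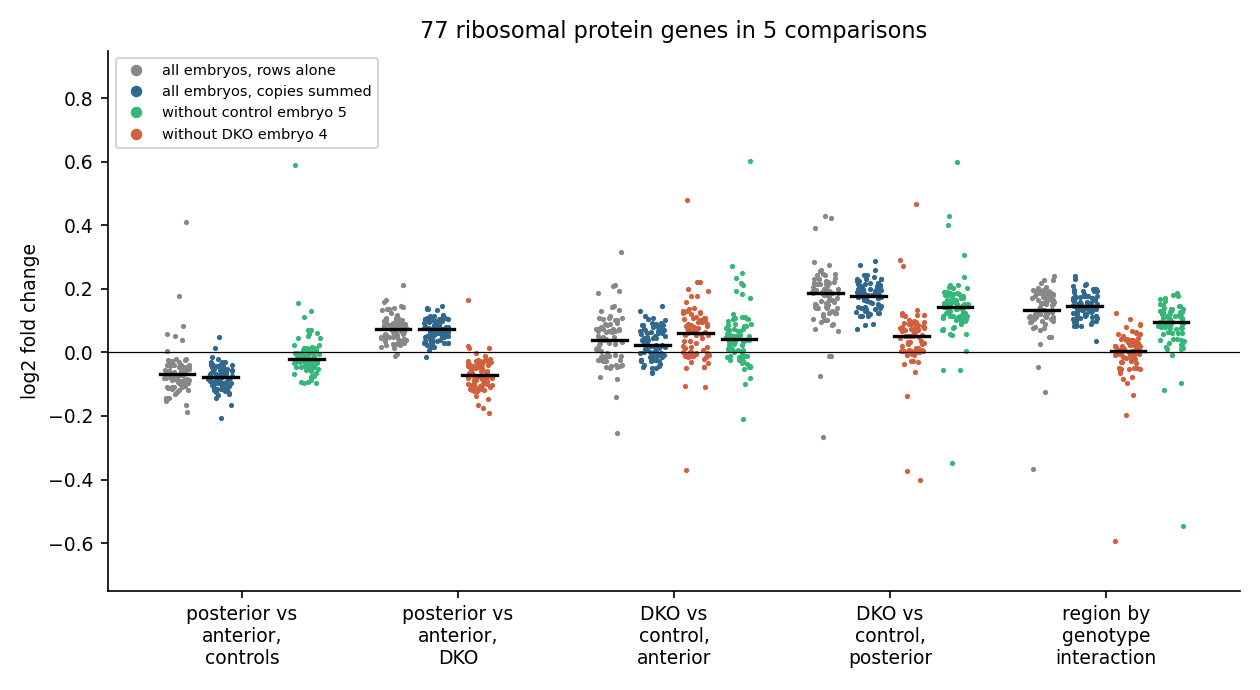
log2 fold change of each of the 77 genes in the 5 comparisons, as single rows (grey), with copies summed (blue), and as single rows without DKO embryo 4 (orange) or control embryo 5 (green), with black bars at the medians. Without DKO embryo 4 the medians move from 0.07 to -0.07 between pieces of DKO embryos and from 0.19 to 0.05 between genotypes in the posterior.

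In posterior DKO 4, 76 of 77 members were above the mean of the other 3 posterior DKO libraries, by a median of 0.43 on the log2 scale. Rpl34 (0.92), Rpl10 (0.60), Rpl41 (0.56) and Rpl39 (0.56) stood out most, and Rps13 (-0.12) was the only one lower. These were values of single rows. With copies summed all 77 members were higher, from 0.22 for Rpl15 to 0.57 for Rpl36a with a median of 0.43, and Rpl34, Rpl10, Rpl41, Rpl39 and Rps13 differed by 0.40, 0.42, 0.56, 0.44 and 0.49. The sum for Rps13 read 581, 541, 561 and 790.0 CPM in posterior DKO 1 to 4. Other short messages were high in the same library. Protein-coding genes outside the family differed by a median of 0.33 where the principal transcript had up to 1000 bases (858 genes), 0.18 above that and up to 2000 bases (3133 genes), -0.01 up to 4000 (5851 genes), -0.23 up to 8000 (3616 genes) and -0.42 above 8000 (656 genes). The mitochondrial ribosomal proteins, whose messages are short too, were higher in 61 of 62 genes by a median of 0.29. The primitive erythroid list was higher in 8 of 12 genes by a median of 0.48, with summed levels of 2103 to 4312 CPM in posterior DKO against 1722 to 2783 CPM in posterior controls, and the heart list in 6 of 7 by 0.61, at 6.44 to 10.0 CPM. Of presomitic and somite markers 9 of 10 were higher (median 0.31), of myotome markers 6 of 9 (0.38), of neural tube markers 7 of 10 (0.04) and of sclerotome markers 5 of 8 (0.13). Of axial bud markers 3 of 10 were higher (-0.17), of neuron markers 5 of 10 (-0.01), of neural crest markers 4 of 8 (-0.06) and of endothelium and gut endoderm markers 5 of 10 and 4 of 8. The part of transcript length or cell content in the result was not tested.

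**Figure D5:**
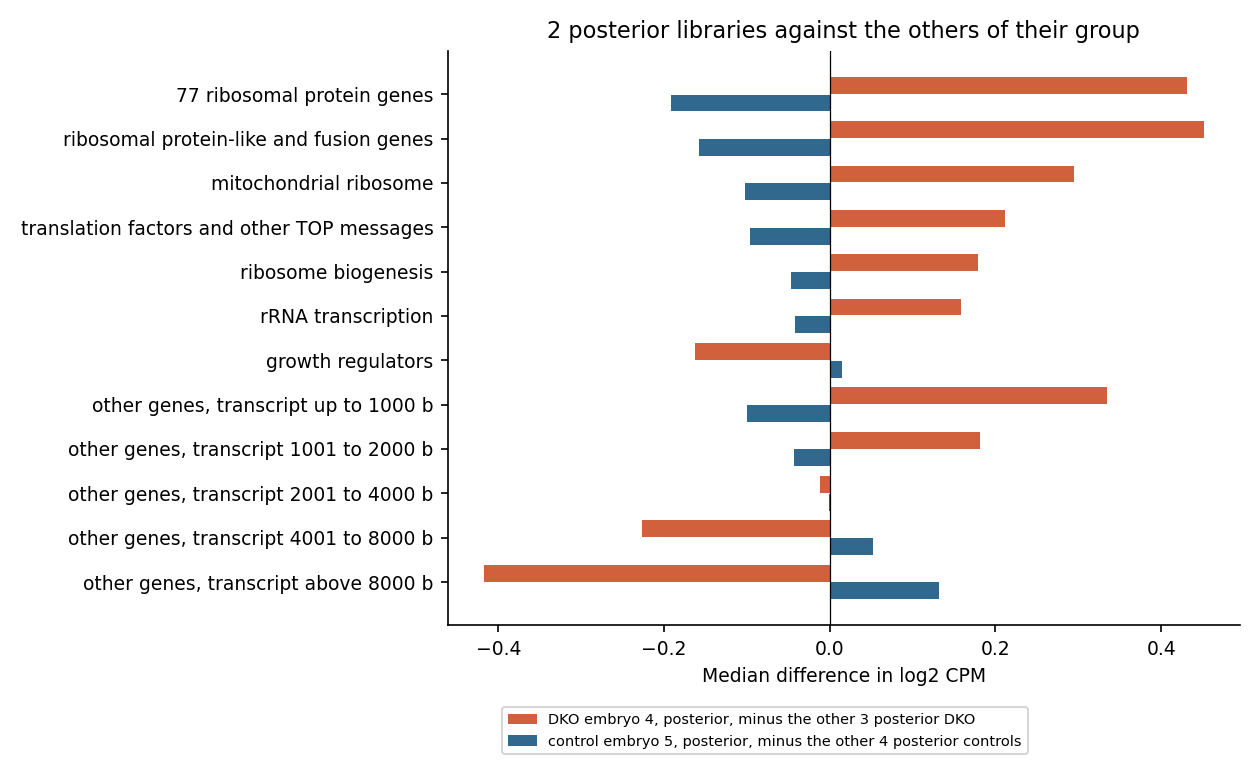
Median difference in log2 CPM between 1 posterior library and the mean of the others of its group, for ribosomal protein genes, related lists and other protein-coding genes by length of the principal transcript in bases (b). In DKO embryo 4 (orange) the medians go from 0.33 for the shortest other genes to -0.42 for the longest, and in control embryo 5 (blue) from -0.10 to 0.13.

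Whether the difference between pieces differed between genotypes was tested as an interaction over all 18 libraries. None of the 77 members and none of 16428 genes (0%) passed the threshold, and at an unadjusted p under 0.05 there were 0 members beside 3.45% of all genes. DESeq2 and limma-voom called 0 members too. The median was 0.13 with 74 genes above 0 (51.7% of all genes), and 0.10 with 73 above 0 without control embryo 5. It was 0.01 with 45 above 0 without DKO embryo 4, and 0.21 with 74 above 0 without DKO embryo 2, where 9 members were higher at an unadjusted p under 0.05 and 0 passed the threshold. The smallest p-values were those of Rpl7a (0.20 ± 0.10), Rps14 (0.24 ± 0.13) and Rps4x (0.19 ± 0.10), all with an edgeR adjusted p of 0.999. They stood at 0.12, 0.11 and 0.07 without DKO embryo 4.

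The groups overlapped in the members with known mouse mutants. Rpl38 read 269.7, 241, 242, 257 and 287 CPM in anterior controls and 252, 243, 224, 291 and 204 CPM in posterior controls. In DKO it read 271, 286, 276 and 255 CPM in the anterior and 274, 251, 258 and 379 CPM in the posterior. All but the last of these lay between 204 and 291 CPM, and the log2 fold change between genotypes in the posterior was 0.26 ± 0.14, with a 95% interval from -0.04 to 0.56. Without DKO embryo 4 it was 0.10 ± 0.10 (edgeR adjusted p = 0.852). The posterior DKO means that follow include embryo 4. Rpl24, mutated in Belly spot and tail mice, averaged 618 ± 37.9, 582 ± 49.3, 639.8 ± 32.6 and 675 ± 119 CPM in anterior control, posterior control, anterior DKO and posterior DKO. In the same order Rps19 averaged 664 ± 34.4, 623 ± 63.5, 714 ± 13.8 and 720.0 ± 117 CPM, and Rps20 695 ± 29.4, 648 ± 71.4, 710.1 ± 37.5 and 756 ± 143 CPM; mutants of both have dark skin. Rps6, the target of S6 kinase, averaged 1136 ± 75.01, 1057 ± 109, 1078 ± 58.5 and 1136 ± 199 CPM.

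Rpl5 and Rpl11 form a complex with 5S rRNA that binds Mdm2, the inhibitor of p53. As rows, Rpl5 averaged 70.2 ± 7.97, 74.4 ± 2.85, 63.8 ± 5.23 and 73.8 ± 10.5 CPM in that order, and Rpl11 542 ± 37.9, 532 ± 70.8, 584 ± 26.7 and 605 ± 85.5 CPM. With copies they averaged 1543 ± 58.9, 1443 ± 69.9, 1477 ± 61.1 and 1586 ± 268 CPM for Rpl5 and 1147 ± 32.9, 1085 ± 68.8, 1213 ± 59.4 and 1243 ± 184 CPM for Rpl11. The log2 fold change of Rpl5 between pieces of controls was 0.08 ± 0.07 as a row and -0.10 ± 0.04 as a sum, neither called (edgeR adjusted p = 0.446 and 0.116).

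Of the X-linked members, Rpl10 averaged 859 ± 7.898, 772 ± 121, 866 ± 23.7 and 906 ± 217 CPM, and Rps4x 1373 ± 56.6, 1290.4 ± 58.7, 1338 ± 47.1 and 1435 ± 232 CPM. Group means ran from 306 to 338 CPM for Rpl36a and from 287 to 335 CPM for Rpl39. Of the members with a paralogue in the table, Rpl3, Rpl22 and Rps27 were among the genes fixed for description. They averaged in the same order 1626 ± 321, 1586 ± 301, 1785 ± 256 and 1892 ± 428 CPM for Rpl3, 497 ± 15.2, 487 ± 41.2, 489 ± 25.6 and 517 ± 59.6 CPM for Rpl22 and 382 ± 28.4, 352 ± 39.3, 371 ± 24.7 and 389 ± 68.3 CPM for Rps27. Counts on the row of Rpl3-ps1, the copy of Rpl3, were near 0 in some embryos.

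Of 12 paralogues, fusion genes and partners outside the family, 9 were tested between pieces of controls, and 2 changed, beside 25.4% of all genes called. Rpl22l1, the paralogue of Rpl22, fell from 230.4 ± 10.5 to 194 ± 17.6 CPM toward the posterior (log2 fold change -0.25 ± 0.06, edgeR adjusted p = 0.0124), and Rps4l, related to Rps4x, rose from 60.2 ± 2.59 to 68.5 ± 5.08 CPM (0.19 ± 0.06, edgeR adjusted p = 0.0281). Fau, which encodes a ribosomal protein fused to a ubiquitin-like domain, had a log2 fold change of 0.03, and Rack1, a scaffold protein on the small subunit, -0.07. Rpl7l1 (-0.06), Rpl36al (-0.05), Rps27l (-0.02) and Rps27rt (-0.19 ± 0.59) were not called either, and Rpl3l, Rpl10l and Rpl39l did not pass the filter on low counts. None of the 9 was called between pieces of DKO embryos, beside 18.5% of all genes. Between genotypes 0 were called too, beside only 0.0394% of all genes in the anterior and 0.0126% in the posterior.

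Of 30 ribosome biogenesis genes tested in controls, all 30 were higher in the posterior with a median log2 fold change of 0.09, and 6 of them rose, beside 25.4% of all genes called in either direction. They were Nop2, Nop14, Rrp1b, Utp20, Rrs1 and Ddx18. The largest were Nop2 (0.22 ± 0.07), Nop14 (0.22 ± 0.06) and Rrp1b (0.21 ± 0.04), which act in nucleolar processing of ribosomal RNA precursors. Of 17 genes for transcription of ribosomal RNA, 2 rose and 0 fell, beside the same 25.4%, namely Polr1b, a subunit of RNA polymerase I (0.34 ± 0.06), and Tcof1, mutated in Treacher Collins syndrome (0.19 ± 0.06). In DKO embryos 29 of 30 biogenesis genes were higher with a median of 0.12, and 1 rose, Ddx18 (0.25 ± 0.07), beside 18.5% of all genes called. Without DKO embryo 4, 27 were higher with a median of 0.09 and 0 were called, beside 16.2% of all genes, and Ddx18 stood at 0.21 ± 0.07 (edgeR adjusted p = 0.108). Without control embryo 5 all 30 were higher in controls with a median of 0.11, and Nop2, Rrp1b and Ddx18 were the 3 called, beside 21.4% of all genes.

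Of 22 translation genes and other messages known to carry a TOP, 0 rose and 3 fell in the posterior of controls, with a median of -0.06, beside 25.4% of all genes called. Eef1a1, the elongation factor that brings aminoacyl-tRNA to the ribosome, fell from 11119 ± 272 to 10336 ± 531 CPM (-0.10 ± 0.03), and Hnrnpa1, an RNA-binding protein, from 2502 ± 62.4 to 2214 ± 108 CPM (-0.18 ± 0.04). Vim, which encodes a filament protein and no translation factor, fell from 708 ± 62.02 to 354 ± 47.8 CPM (edgeR adjusted p = 5.97e-06), the largest change of the list. In DKO embryos 1 of the 22, Vim, fell (-0.98 ± 0.14), beside 18.5% of all genes called. Vim and Hnrnpa1 were the 2 called lower in DKO embryos without embryo 4, beside 16.2% of all genes called. The same 2 were called lower in controls without embryo 5, beside 21.4%, where Eef1a1 was not called.

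Of 62 mitochondrial ribosomal protein genes, 1 rose in the posterior of controls, Mrpl23 (0.57 ± 0.16), and 3 fell, Mrps33 (-0.40 ± 0.06), Mrps23 (-0.27 ± 0.05) and Mrps17 (-0.22 ± 0.05), with a median of -0.02, where 25.4% of all genes were called. Of 16 growth regulators, Mycn, a driver of ribosome synthesis, rose from 136 ± 11.03 to 186 ± 18.3 CPM (0.45 ± 0.08), Mga (0.24 ± 0.07) and Rptor (0.17 ± 0.05) rose, and Mxd4 (-0.24 ± 0.08) fell. Of 14 genes of the p53 response to nucleolar stress, Pmaip1 rose from 1.605 ± 0.289 to 21.95 ± 4.69 CPM (3.77 ± 0.19), Btg2 (0.63 ± 0.14) and Trp53 (0.20 ± 0.05) rose, and Bbc3 (-0.31 ± 0.09) fell. These were 4 of 16 and 4 of 14, beside the same 25.4%. Without control embryo 5, where 21.4% of all genes were called, Mrpl23, Rptor, Mxd4 and Bbc3 were no longer called. In that fit Mrpl37 rose and Zmat3 fell. Lists were refitted without these embryos after the values were seen. In DKO embryos 2 mitochondrial ribosomal protein genes rose and 0 fell, 1 growth regulator rose and 1 fell, and 5 genes of the p53 list rose and 1 fell, beside 18.5% of all genes called. Without DKO embryo 4 these counts were 0 and 1, 1 and 1, and 4 and 1, beside 16.2%. Between genotypes 0 genes of any of these lists were called by edgeR in either region. Only 0.0394% of all genes were called there in the anterior and 0.0126% in the posterior. In the posterior 13 of 14 genes of the p53 list had higher means in DKO, with a median log2 fold change of 0.32, or 0.36 without DKO embryo 4 and 0.33 without control embryo 5. Its summed level was 761 to 869 CPM in posterior DKO and 653 to 722 CPM in posterior controls, which did not overlap. In the anterior 12 of 14 were higher with a median of 0.16, and the sums, 663 to 705 and 610 to 665 CPM, overlapped.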

How the data were processed

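Poly(A) RNA of 18 libraries was sequenced from a single end at 61 bases, per the labels' protocols. The authors deposited expected counts per Ensembl gene for GRCm38, made with CASAVA, cutadapt and RSEM per the submitters' processing notes, unscaled between libraries; aligner, versions and use of strand are not given in the sources used here. RSEM divides reads that fit several genes among them, so values of genes with near-identical copies are estimates. GENCODE M21 matched 53360 of 53465 identifiers, and 105 were not matched.

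Counts were rounded and tested in R 4.3.3 with edgeR 4.0.16 (filterByExpr with minimum count 10 and minimum total 15, TMM, quasi-likelihood test, Benjamini-Hochberg over all genes tested, threshold 0.05), using the groups compared and no covariates. DESeq2 1.42.0 and limma 3.58.1 (voom) were alternatives, beside other scalings, filters, covariates, left-out embryos, an embryo block and summed copies. Summed copies, and their joint use with the block or left-out embryos, were chosen after seeing the data, as was the block without control embryo 5. The fits were tested on simulated data. CPM are scaled by TMM over all libraries, and SEs are the log2 fold change over the root of F.

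The pieces of an embryo were joined through genotype, sex label and somite stage, which together identify each embryo; control embryos 1 and 5 share a somite stage and are told apart by the sex label, which the sex-linked genes of control embryo 1 went against. After removing group means, same-embryo pieces correlated at 0.275 to 0.557 over genes, and different embryos of a genotype at -0.288 to 0.0931.

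Named genes were those with the smallest p-values between genotypes (4 in each direction) and in the interaction (3), 14 fixed members, the 3 at each end of level and of spread, the list genes with the 3 largest called changes in each direction, and, added after the values were seen, members called under the block and those behind the copies and outlying libraries. Members and lists were chosen with earlier results of these data known. Some items are not reported here.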

Additional observations from a re-analysis of the deposited data

Results flagged for a closer look

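In groups of 4 or 5 libraries, a library whose gap to the nearest other exceeds 0.829 or 0.710 of the group's range was looked at again, a bound that chance passes in about 1 of 20 groups. Posterior DKO 4 held 7.60% of its counts on ribosomal protein genes, far above the other posterior DKO libraries, and 9.02% with copies. Over 77 genes in 4 groups, 55 of 308 combinations passed the bound, and 46 of them were this library as the highest. Among the fixed members these were Rpl11 at 733 CPM, Rpl24 at 853 CPM, Rpl39 at 440 CPM, Rps19 at 894 CPM, Rps20 at 970 CPM and Rps6 at 1432 CPM. Rpl3 in anterior DKO 2 was far below its group at 1402 CPM, in a library with 513 CPM on the row of Rpl3-ps1. Rpl36a in posterior control 4 was above its group at 359 CPM. Causes were not tested.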

How the results depend on the processing

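With the embryo block, region calls in controls went from 0 to 7, and with the block and copies summed to 12. The block changed no other call: between pieces of DKO embryos and in the interaction it called 0 members. The block without control embryo 5 called 1 gene, or 2 with copies summed. Without the block, covariates for sex label, doubtful in 1 control embryo, and somite number called 4, and upper-quartile scaling, summed named pseudogenes and summed copies called 1 each. Between pieces of DKO embryos 2 genes were called without DKO embryo 4, with or without copies summed, so that leaving out 1 embryo gave 0 to 2 calls. DESeq2 called 1 gene between genotypes in the anterior. The other settings called 0 members. Named pseudogenes raised the mean share to 6.51%, 6.67%, 6.16% and 6.83% in anterior control, anterior DKO, posterior control and posterior DKO. Copies raised it to 7.17%, 7.32%, 6.76% and 7.49% in the same order.

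Some single genes changed sign on the log2 scale. Between pieces of controls, Rpl5 came to -0.0957 with copies summed and -0.0961 with the block too. With the block and without control embryo 5, Rpl38 came to 0.00188, Rpl11 to 0.0463 and Rpl3 to 0.00325. With copies summed as well, these settings gave Rpl38 0.00187, Rpl3 0.00636 and Rpl5 -0.0557. Leaving out 1 embryo gave -0.173 to 0.00595 for Rpl38, -0.0803 to 0.0458 for Rpl11 and -0.0593 to 0.00852 for Rpl3, each highest without control 5. Between genotypes in the anterior, Rpl34 came to 0.0469 with named pseudogenes and 0.04703 with copies. In the posterior, named pseudogenes gave Rps12 0.172 and Rpl34 0.174, and copies gave Rps12 0.172, Rpl34 0.173, Rpl5 0.138 and Rplp0 0.145. Copies summed without DKO embryo 4 gave Rps12 0.0153, Rpl34 0.0551, Rpl5 0.00553, Rplp0 0.0366, Rpl10 -0.00865 and Rpl3 -0.00692. Rplp0 came to 0.00144 under upper-quartile scaling, 0.00102 with limma-voom and 0.0299 with covariates. Leaving out 1 embryo there gave -0.372 to 0.0274 for Rpl34, -0.0647 to 0.0851 for Rpl5, -0.138 to 0.0902 for Rplp0 and -0.0357 to 0.1598 for Rps6, which was below 0 without DKO 4. The causes were not tested.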
